A study of Danio rerio with 8 samples.

Results

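Genes of interleukin, tumour necrosis factor (TNF) and transforming growth factor beta (TGF-beta) signalling were followed in macrophage reporter cells of the injured zebrafish heart. The members were all identifiers whose symbol begins with il and a digit, tnf and a letter (other than tnfaip), tgfb and a digit or r, ifngr, crfb, csf3r, socs and a digit, or jak and a digit. They numbered 49 of the 10479 identifiers in the table and carried 46 symbols, of which SOCS3, TGFBR1 and TGFBR2 each stood for a pair of identifiers. They comprised 3 interleukin ligands, 8 interleukin receptors, 6 TNF superfamily ligands, 9 TNF receptor superfamily genes, 3 TGF-beta ligands, 5 TGF-beta receptors, 5 interferon and class II cytokine receptors, the receptor gene CSF3R, 3 JAK kinases and 4 SOCS genes. A further 2 genes, il4i1 and TGFBRAP1, met the rule by name only. The gene il4i1 encodes an amino acid oxidase and TGFBRAP1 a receptor-associated adaptor protein.

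All cells came from adult fish of the transgenic line Tg(wt1b:eGFP; mpeg1:mCherry), aged 6 to 9 months, whose hearts had been injured by freezing and were taken 4 days later. The 4 single positive libraries held mCherry cells without eGFP, written eGFP- here, and the 4 double positive libraries held cells with both colours, written eGFP+, each library from a pool of 5 to 7 hearts. Both populations therefore shared the genotype and the injury, and no uninjured heart was compared. In this line mCherry is driven by the promoter of mpeg1, a macrophage gene whose reporters are also known to label B lymphocytes of adult zebrafish, and eGFP by that of wt1b, a zinc finger transcription factor gene. Libraries 1 and 2 of each population were built in library batch 1, and libraries 4 and 5 in batch 2. The values are the authors' normalized counts, for which no division by gene length is stated, so levels are compared between libraries. Levels of different genes are set against each other in marker sums, in ratios of paired copies and in choosing the member of highest mean in each role. Those uses carry the unknown effect of gene length.

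Macrophages answer injury through secreted cytokines that bind paired receptor chains. Many interleukins, the interferons and some colony-stimulating factors pass their signal through receptor-bound JAK kinases to STAT transcription factors. These switch on SOCS genes, whose products restrain the same receptors. TNF ligands bind trimeric receptors that recruit TRAF adaptors and ubiquitin ligases and lead to NF-kB, whereas TGF-beta ligands join a type II to a type I receptor kinase that phosphorylates SMAD proteins, a pathway known for ending inflammation and for scar formation in the injured heart.

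The column totals of normalized counts lay between 803220 and 1021901, and read depth is unknown. Library 1 of the eGFP+ cells stood apart, with 42.3% of all identifiers under 1 normalized count against 10.7% to 19.7% in the other 7 libraries, and with 15 of the 49 members under 1 against 4 to 9. Library 4 of the eGFP- cells held the lowest eGFP- value of 23 members. The driver gene wt1b had 0.122 to 0.469 normalized counts in eGFP- and 13.6 to 63.1 in eGFP+ libraries. The symbol of the other driver, MPEG1, stood for 3 identifiers, and the labels do not say to which of them the reporter promoter belongs. MPEG1 ENSDARG00000055290 had 302 to 536 in eGFP- and 167 to 452 in eGFP+ libraries (log2 difference -0.42, limma adjusted p = 0.496). MPEG1 ENSDARG00000043093 had 4.98 to 89.5 and 191 to 601 (log2 difference 4.33, limma adjusted p = 0.000734), and MPEG1 ENSDARG00000078569 had at most 13.5. From a list of 17 macrophage marker symbols 18 identifiers were found beside these, and their summed level was 7805 to 10735 in eGFP- and 9661 to 14922 in eGFP+ libraries. Most of that sum was cd74a in the eGFP- libraries and in eGFP+ libraries 1 and 2. In eGFP+ libraries 4 and 5 cd74a was the smaller part, at 7123 of 14922 and 4050 of 11812. Its range was 6446 to 8192 in eGFP- and 4050 to 7123 in eGFP+ libraries (log2 difference -0.47, limma adjusted p = 0.121). The 7 B lymphocyte markers found, of 10 listed, summed to 478 to 1163 in eGFP- and 121 to 161 in eGFP+ libraries, where cd37, ighm, PAX5 and cd79a were all under 1 and irf4b at most 1.29. Of the other 2, blnk had 109 to 326 in eGFP- and 100.2 to 109.7 in eGFP+ libraries, and cd22 went the other way without overlap, from 0.156 to 5.13 in eGFP- to 10.9 to 48.8 in eGFP+ libraries, and was not called (log2 difference 3.65, limma adjusted p = 0.0706). Of 14 T and NK lymphocyte marker symbols listed 3 matched an identifier, and most of their sum was CCR9. The defining T lymphocyte genes cd3e, lck and zap70 were listed without a match, so they were not analysed here. The 6 epicardium and fibroblast markers found, wt1b among them, summed to 85.4 to 657 in eGFP- and 111 to 793 in eGFP+ libraries. Their median log2 difference was -2.33 in batch 1 and 3.24 in batch 2. For the 5 cardiomyocyte markers found, the sums were 10.5 to 171 and 15.5 to 146, and the batch medians -2.87 and 1.73. The part of these markers in the member results was not tested. In such bulk samples fewer cells of a type and less RNA per cell cannot be told apart.

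Of the 49 members 45 passed the filter on low values, and 4 of them were higher and 1 lower in eGFP+ cells at an adjusted p under 0.05 (limma, adjusted over all 10127 tested genes). In all, 6.69% of the tested genes were called in either direction, against 11.1% of the members. The higher genes were CSF3R, tnfrsf11a, tnfa and JAK1. The lower gene was TGFBR2 ENSDARG00000034541, which passed the filter on low values only through the eGFP- libraries. Among all tested genes 3.88% were called higher and 2.81% lower, against 8.89% and 2.22% of the members. The values of the populations did not overlap for 10 members, or 22.2% of those tested, where 14.1% of all tested genes showed such separation. The log2 difference, eGFP+ minus eGFP- on the log2(value + 1) scale, had a median of 0.26 over the members and of -0.16 over all tested genes, and it was above 0 for 29 members and below 0 for 16. It was above 0 for 43.8% of all tested genes. An unadjusted p under 0.05 was reached by 14 members, and by 19.1% of all tested genes. Median centring of the libraries moved the median of all genes to 0.12, and with it 8 members were called higher and 1 lower, where 542 of all tested genes (5.35%) were higher and 220 lower, in place of 393 and 285. Without the mean-variance trend of the fit 0 members were higher, with adjusted p (limma) from 0.0558 for tnfrsf11a to 0.404 for JAK1, and TGFBR2 ENSDARG00000034541 stayed lower, beside 124 higher and 195 lower genes of all tested. An unadjusted p under 0.05 was then reached by 11 members and by 16.6% of all tested genes. Within populations the members spread by 0.2 to 2.33 (SD on the log2 scale, mean of both populations), with a median of 0.83 against 1.14 for all tested genes.

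**Figure D1:**
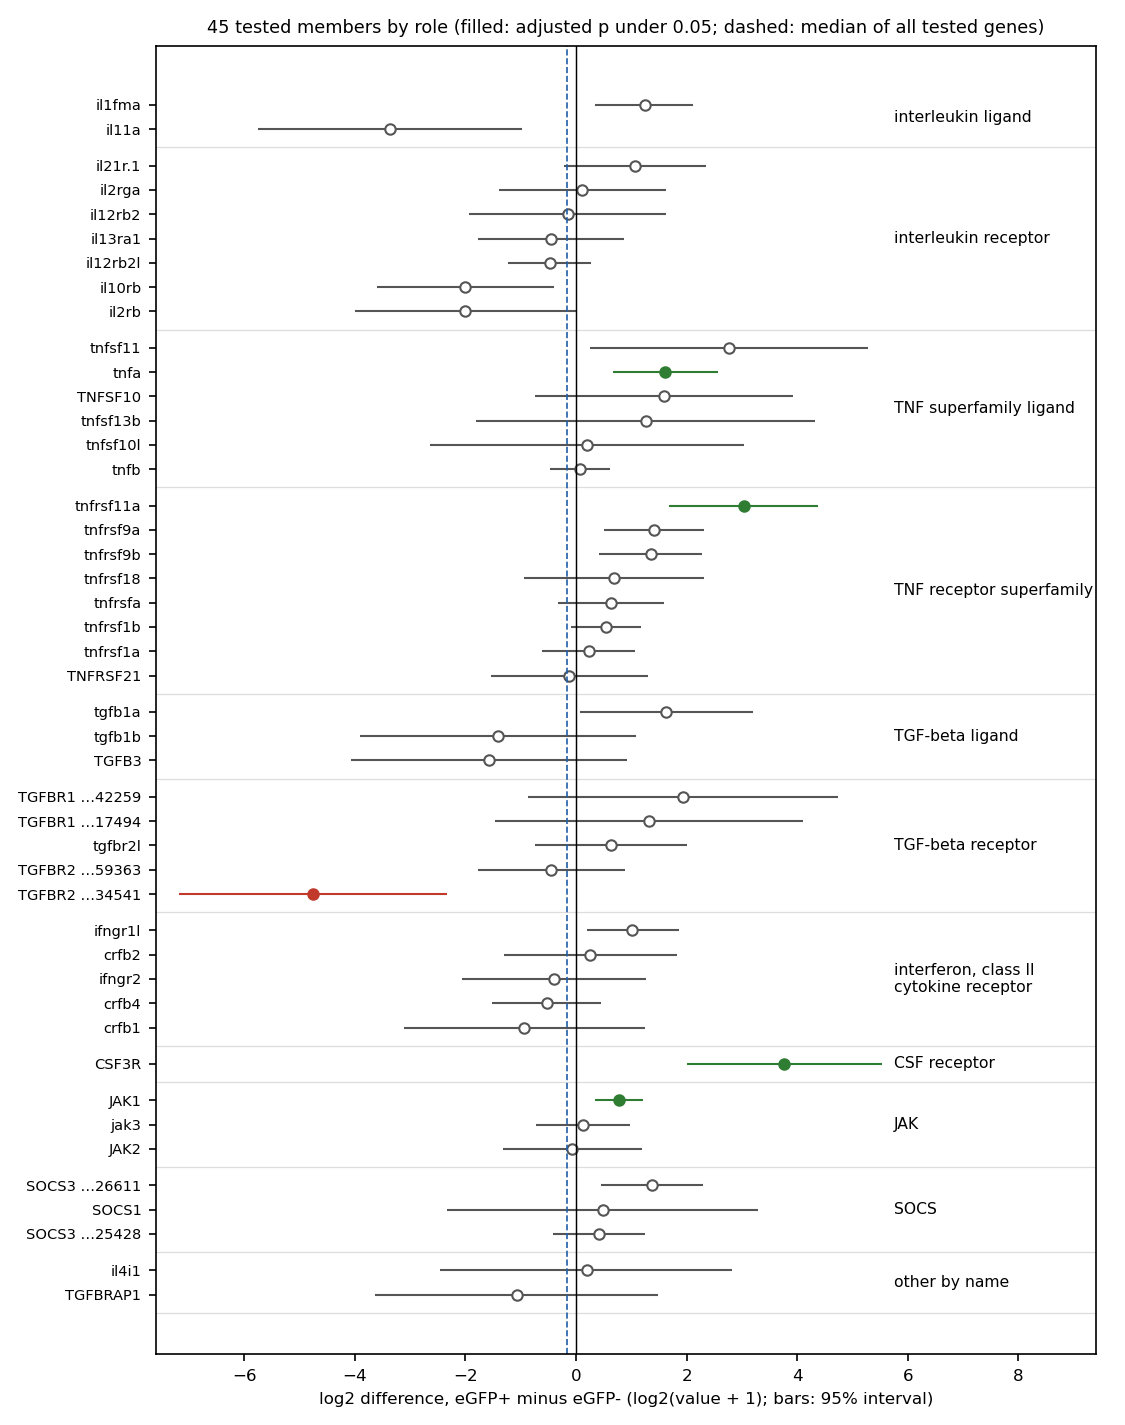
Log2 difference (eGFP+ minus eGFP-, on log2(value + 1)) of each of the 45 tested members, ordered by role, with its 95% interval from the limma fit over 4 and 4 libraries. Filled points passed an adjusted p under 0.05, and the dashed line marks the median of all tested genes, -0.16. All 6 TNF ligands and 7 of 8 TNF receptors lie right of 0, beside 43.8% of all tested genes. In each of these 2 roles 1 gene was called higher, beside 3.88% of all tested genes. The batch 1 and batch 2 medians were 0.07 and 2.75 for TNF ligands, and 0.92 and 0.72 for TNF receptors. The lowest point, at -4.76, is TGFBR2 ENSDARG00000034541, which passed the filter on low values only through the eGFP- libraries.

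The TNF ligand gene tnfa, whose product is a principal inflammatory cytokine of macrophages, rose in eGFP+ cells. It had 51.4, 86.2, 27.7 and 63.0 normalized counts in eGFP- libraries 1, 2, 4 and 5, and 82.2, 177, 276 and 177 in the eGFP+ libraries of the same numbers. The populations overlapped in eGFP+ library 1, which lay below eGFP- library 2. The means were 57.1 ± 24.4 and 178 ± 79.2 (SD, n = 4 each), and the log2 difference was 1.61 (SE 0.45, 95% interval 0.66 to 2.56 and limma adjusted p = 0.0402). Batch 1 gave 0.85 and batch 2 gave 2.37. Leaving out eGFP- library 1, 4 or 5 ended the call (adjusted p = 0.0738, 0.135 and 0.0833), as did leaving out eGFP+ library 2, 4 or 5 (adjusted p = 0.0789, 0.198 and 0.143) or a pseudocount of 0.1 (adjusted p = 0.0512). The call also ended with replicate number in place of batch in the fit (limma adjusted p = 0.0578) and without the mean-variance trend (adjusted p = 0.221). It stood at adjusted p = 0.00262 without eGFP+ library 1.

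The second zebrafish TNF gene, tnfb, was not called. Its values were 266, 271, 163 and 225 in eGFP- and 294, 272, 217 and 183 in eGFP+ libraries, and the populations overlapped. The log2 difference of tnfb was 0.07 with a 95% interval of -0.48 to 0.61 (limma adjusted p = 0.936), so a change of the size estimated for tnfa lay outside its interval. It was -0.11 after quantile normalization and -0.03 without eGFP- library 4, so its sign depended on the setting.

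Among the other TNF ligands, the largest log2 difference was that of tnfsf11, which encodes RANKL, the ligand that directs osteoclast formation in mammals. It had 2.63, 1.12, 0.0849 and 0.085 normalized counts in eGFP- libraries and 28.7, 0.443, 19.4 and 20.9 in eGFP+ libraries. Library 2 of the eGFP+ cells fell among the eGFP- values, while the other 3 lay above them all. The log2 difference of 2.76 (SE 1.19) did not pass (limma adjusted p = 0.208, unadjusted p = 0.0331). TNFSF10 and tnfsf10l, genes for the apoptosis ligand TRAIL and a relative, and tnfsf13b, for the B lymphocyte survival factor BAFF, had log2 differences of 1.59, 0.20 and 1.26 with adjusted p of 0.477 to 0.968 (limma). Each of these 3 genes was under 1 in 2 to 4 libraries.

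The receptor gene tnfrsf11a, which encodes RANK, the receptor of RANKL, was called higher. It had 30.0, 12, 11.5 and 4.35 normalized counts in eGFP- libraries 1, 2, 4 and 5 and 59.1, 98.4, 141 and 139 in eGFP+ libraries. Every eGFP+ value lay above every eGFP- value. The means were 14.5 ± 10.9 and 109 ± 38.8 (SD, n = 4 each), a log2 difference of 3.03 (SE 0.64, 95% interval 1.68 to 4.37 and limma adjusted p = 0.008). Batch 1 gave 1.94 and batch 2 gave 4.11. The call was lost without eGFP+ library 4 (adjusted p = 0.0661) or 5 (adjusted p = 0.0725), and without the mean-variance trend (limma adjusted p = 0.0558). In the same libraries 12 of the 18 macrophage markers above were called higher and 0 lower, with a median log2 difference of 4.13. Several of the called ones were MFAP4 identifiers or C1q chain genes. MFAP4 ENSDARG00000038683 passed the filter on low values only through the eGFP+ libraries. The log2 difference was below 0 for 3 of the 18, among them csf1rb, with 50.1 to 172 in eGFP- and 27.5 to 68.3 in eGFP+ libraries (log2 difference -1.23, limma adjusted p = 0.15). SPI1, cd68 and CORO1A were not called. The part of these markers in this result and in those of tnfa and JAK1 was not tested.

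Both genes of 4-1BB, a receptor known in mammals from activated lymphocytes and myeloid cells, separated the populations without passing the threshold. For tnfrsf9a the values were 52.8, 76.6, 23.9 and 78.8 in eGFP- and 132, 124, 164 and 149 in eGFP+ libraries. For tnfrsf9b they were 53.2, 31.2, 28.1 and 78.4 against 116, 102, 98.0 and 140.0. Neither gene showed any overlap between the populations, against 7.12% of all tested genes with such separation toward eGFP+ cells. The log2 differences were 1.41 (SE 0.43, limma adjusted p = 0.0568) for tnfrsf9a and 1.35 (SE 0.44, limma adjusted p = 0.0802) for tnfrsf9b. Both passed with median centring (adjusted p = 0.0216 and 0.0446) and without the batch covariate (adjusted p = 0.0338 and 0.04955). The gene tnfrsf9a also passed without eGFP+ library 1 (adjusted p = 0.0394), and, each at adjusted p = 0.0446, with a pseudocount of 5 and at a filter of 10 in 1000000.

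The genes of the receptors that bind TNF itself did not pass. The death domain receptor gene tnfrsf1a had 50.1 to 80.9 normalized counts in eGFP- and 57.7 to 109.6 in eGFP+ libraries, a log2 difference of 0.23 (95% interval -0.61 to 1.07, limma adjusted p = 0.822). The gene of the second TNF receptor, tnfrsf1b, had 160.2, 153, 103 and 192 in eGFP- and 168, 194, 269 and 252 in eGFP+ libraries. Its populations overlapped in eGFP+ library 1, which lay below eGFP- library 5, and its log2 difference was 0.54 (95% interval -0.09 to 1.18, limma adjusted p = 0.356). Of the remaining receptors tested, tnfrsf18, tnfrsfa and TNFRSF21 had log2 differences of 0.69, 0.64 and -0.12 with adjusted p of 0.487 to 0.958 (limma). The herpesvirus entry mediator gene tnfrsf14 was under 1 in 5 libraries and was not tested.

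**Figure D2:**
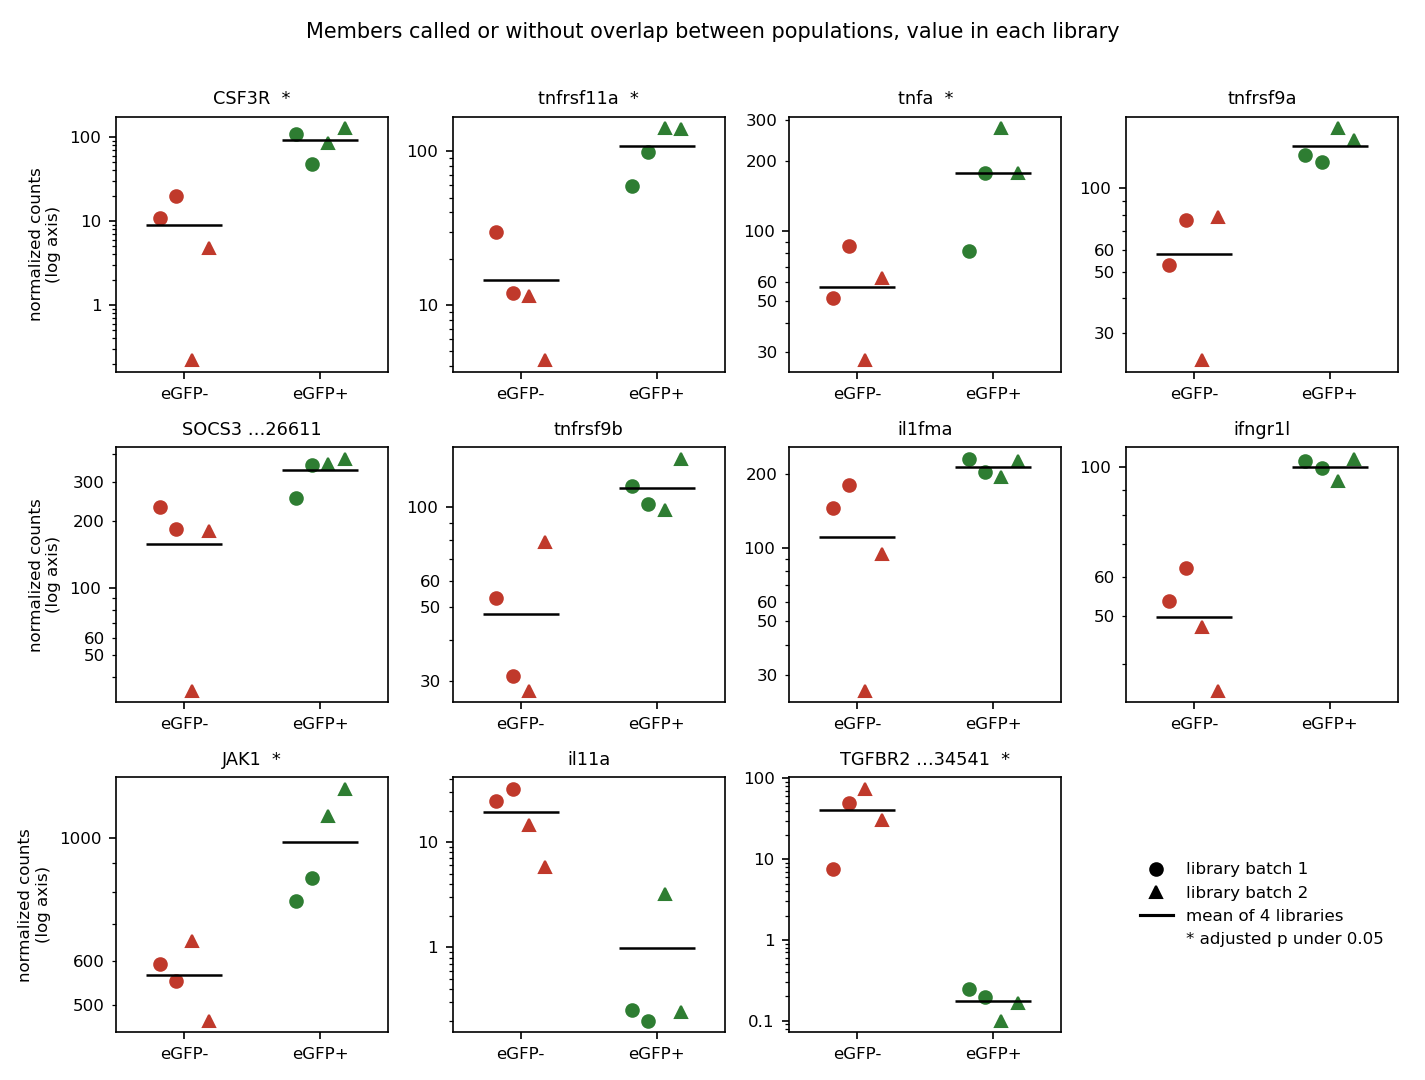
Normalized counts on a log axis of the 11 members that were called or whose populations did not overlap, in each of 8 libraries, with circles for library batch 1, triangles for batch 2 and a line at the mean of 4 libraries. An asterisk marks an adjusted p under 0.05. In 8 of the 11 panels all eGFP+ values lie above all eGFP- values, in those of il11a and TGFBR2 ENSDARG00000034541 all lie below, and tnfa overlaps. The panels were chosen by call or lack of overlap, so these counts follow from the choice. Of the 45 tested members 22.2% did not overlap, beside 14.1% of all tested genes, of which 7.12% were separated toward eGFP+ cells.

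None of the interleukin genes passed the threshold. An unadjusted limma p under 0.05 was reached by 2 of 2 tested ligand genes and 1 of 7 tested receptor genes, beside 19.1% of all tested genes. The gene il1fma, of a fish member of the interleukin-1 family, had 145, 179.6, 26.0 and 94.1 normalized counts in eGFP- and 231, 203, 194 and 225 in eGFP+ libraries. All eGFP+ values lay above the eGFP- ones, of which that of library 4 was the lowest. The log2 difference of il1fma was 1.24 (SE 0.42, limma adjusted p = 0.0961), and 0.42 and 2.05 in the batches, and it was 0.71 without eGFP- library 4. It passed with median centring (adjusted p = 0.0197) and without eGFP+ library 1 (adjusted p = 0.0457).

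The ligand gene il11a, of an interleukin-6 family cytokine that signals through the shared chain gp130, went the other way. The eGFP- libraries had 24.7, 32.1, 14.5 and 5.76 normalized counts, and eGFP+ libraries 0.251, 0.2, 3.23 and 0.241. No values overlapped, and 3 of the 4 eGFP+ values were under 1. The log2 difference of il11a was -3.37 (SE 1.13, limma adjusted p = 0.0919), and the batches gave -4.57 and -2.16. It passed without the batch covariate only (adjusted p = 0.04955), among the settings tried. The interleukin-12 p35 gene il12a did not pass the filter on low values and was not tested. It was under 1 in 5 libraries, with 0.279 to 0.719 in eGFP- and 0.261 to 8.74 in eGFP+ libraries.

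Of the 7 interleukin receptor genes tested 5 had a log2 difference below 0, and 0 were called in either direction (limma, 1 with an unadjusted p under 0.05, beside 19.1% of all tested genes). The gene of interleukin-10 receptor beta, il10rb, a shared chain of anti-inflammatory and interferon-like cytokines, had 17.1, 62.6, 51.9 and 52.3 normalized counts in eGFP- and 5.48, 5.14, 13.6 and 21 in eGFP+ libraries. The overlap rested on eGFP- library 1, which lay below eGFP+ library 5. The log2 difference of il10rb was -2.0 (SE 0.76, 95% interval -3.61 to -0.39, limma adjusted p = 0.149), and -2.43 and -1.57 in the batches. The interleukin-2 receptor beta gene il2rb, known from T and NK lymphocytes, had 8.96, 1.48, 0.919 and 25.4 in eGFP- libraries and 0.208 to 0.957 in eGFP+ libraries (log2 difference -2.0, limma adjusted p = 0.263), having passed the filter only through the eGFP- libraries. The overlap was between eGFP- library 4 and eGFP+ library 4. Its neighbour in the receptor complex, the common gamma chain gene il2rga, had a log2 difference of 0.11 (95% interval -1.40 to 1.62). The interleukin-21 receptor gene il21r.1 was at 1.07 (adjusted p = 0.372, limma).

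The interleukin-12 receptor relative il12rb2l had 220.2, 136, 124 and 314 normalized counts in eGFP- and 192, 94.6, 129 and 128 in eGFP+ libraries. These ranges overlapped widely, and the log2 difference was -0.48 (95% interval -1.24 to 0.27, limma adjusted p = 0.512). For il12rb2 and il13ra1, a chain of the interleukin-4 and interleukin-13 receptor, it was -0.15 and -0.45. The interleukin-15 receptor alpha gene il15ra was under 1 in 5 libraries and was not tested.

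The gene CSF3R encodes the receptor of granulocyte colony-stimulating factor, known for its role in neutrophil production. It had the largest log2 difference toward eGFP+ cells, on log2(value + 1), of the members tested. The eGFP- libraries 1, 2, 4 and 5 had 10.7, 19.9, 0.219 and 4.71 normalized counts, and eGFP+ libraries 107, 48.1, 85.2 and 126. The lowest eGFP+ value lay above the highest eGFP- value. The means were 8.88 ± 8.5 and 91.5 ± 33.4 (SD, n = 4 each), and the log2 difference was 3.76 (SE 0.84, 95% interval 2.00 to 5.53, limma adjusted p = 0.0114), and the batches gave 2.22 and 5.31. The call was lost without eGFP+ library 4 (adjusted p = 0.079) or 5 (adjusted p = 0.112), and without the mean-variance trend (limma adjusted p = 0.0598). Of the 11 neutrophil markers listed 5 were found, of which 1 was called higher and 0 lower, and they summed to 670.4 to 826 in eGFP- and 1127 to 2019 in eGFP+ libraries. Most of that sum was the called gene NCF1, of a phagocyte oxidase subunit that macrophages also use, with 628 to 811 and 1069 to 1957. The chemokine receptor gene cxcr1 had at most 2.39 in eGFP- and 7.06 in eGFP+ libraries, and the protease gene mmp13a 9.35 to 25.5 and 9.64 to 73.8. The log2 differences of nccrp1 and MMP9 were 1.99 and -1.24 (limma adjusted p = 0.262 and 0.645). The part of these markers in the CSF3R result was not tested. The neutrophil genes mpx and lyz were listed without a match, so they were not analysed here.

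None of the 5 interferon and class II receptor chains passed (limma), and 1 had an unadjusted p under 0.05, beside 19.1% of all tested genes. The gene ifngr1l, of a chain related to interferon gamma receptor 1, had 53.6, 62.5, 47.5 and 35.4 normalized counts in eGFP- and 103, 99.5, 93.7 and 104 in eGFP+ libraries. The populations did not overlap, and the eGFP+ values were close to each other (100.2 ± 4.73, SD, n = 4). The log2 difference of ifngr1l was 1.02 (SE 0.40, 95% interval 0.19 to 1.86), which did not pass (limma adjusted p = 0.156, unadjusted p = 0.0195). That of its partner chain ifngr2 was -0.39 (95% interval -2.06 to 1.27). The genes crfb1 and crfb2, of zebrafish type I interferon receptor chains, and crfb4, of a class II cytokine receptor chain, were at -0.94, 0.26 and -0.53, with adjusted p of 0.594 to 0.907 (limma).

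The TGF-beta branch contained the lowest log2 difference of the members. TGFBR2 ENSDARG00000034541, a type II receptor identifier, had 7.63, 49.0, 74.2 and 30.8 normalized counts in eGFP- libraries 1, 2, 4 and 5. In eGFP+ libraries it had 0.25, 0.197, 0.0998 and 0.166, all under 1, so no ratio is given. The gene passed the filter on low values only through the eGFP- libraries, where it was high, so its call is given as a description of these libraries. The populations were fully separated. The log2 difference was -4.76 (SE 1.15, 95% interval -7.18 to -2.33, limma adjusted p = 0.018), and the batches gave -4.09 and -5.43. The gene lost its call without eGFP- library 4 (adjusted p = 0.05001), eGFP+ library 4 (adjusted p = 0.0822) or 5 (adjusted p = 0.0846), and at a filter of 10 in 1000000 it was not among the genes tested. In the same direction, 5 of the 7 B lymphocyte markers were called lower and 0 higher, with a median log2 difference of -5.35, although cd22 was at 3.65. Of these markers, cd37, ighm, PAX5 and cd79a also passed the filter only through the eGFP- libraries, so their calls too only describe these libraries. The 3 T and NK lymphocyte markers found summed to 296 to 776 in eGFP- and 75.7 to 162 in eGFP+ libraries, with CCR9 called lower (log2 difference -2.59) and RUNX3 and cd4-1 at -1.26 and 1.68. The 6 endothelial markers found, of 10 listed, summed to 185 to 492 in eGFP- and 92.7 to 244 in eGFP+ libraries, with 1 called lower, 0 higher and a median log2 difference of -2.26. Among them vwf, the called gene, had 67.5 to 129 in eGFP- and 0.195 to 43.3 in eGFP+ libraries, cdh5 had 52.3 to 219 and 1.75 to 37.6, and TIE1 went the other way at a log2 difference of 1.27. The part of these markers in the receptor result was not tested.

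The other identifier of that symbol, TGFBR2 ENSDARG00000059363, had 29.7, 24.9, 58.6 and 67.4 normalized counts in eGFP- and 51.7, 46.5, 26.2 and 12.6 in eGFP+ libraries. The populations overlapped and the batches disagreed, with a log2 difference of 0.83 in batch 1 and -1.73 in batch 2 (-0.45 over both, 95% interval -1.78 to 0.88, limma adjusted p = 0.761). The related tgfbr2l had 7.68 to 35.4 in eGFP- and 27.5 to 41.1 in eGFP+ libraries, at a log2 difference of 0.63 (95% interval -0.74 to 2.01). The type I receptor identifiers TGFBR1 ENSDARG00000042259 and TGFBR1 ENSDARG00000017494 were at 1.94 and 1.32 with wide intervals (-0.87 to 4.74 and -1.47 to 4.11), and each was under 1 in 2 or 3 libraries.

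No TGF-beta ligand passed the threshold. The gene tgfb1a, a zebrafish TGF-beta 1 gene, had 21.4, 33.1, 14.5 and 3.29 normalized counts in eGFP- and 74.6, 28.7, 28.9 and 68.9 in eGFP+ libraries. Libraries 2 and 4 of the eGFP+ cells lay below eGFP- library 2. Its log2 difference was 1.63 (SE 0.74, 95% interval 0.07 to 3.20, limma adjusted p = 0.236, unadjusted p = 0.0416). The second TGF-beta 1 gene, tgfb1b, was at -1.41 (95% interval -3.90 to 1.08) and TGFB3, for TGF-beta 3, at -1.57 (95% interval -4.07 to 0.92), both with overlapping values. The adaptor gene TGFBRAP1 was at -1.07 (95% interval -3.63 to 1.49), and il4i1, the oxidase gene, at 0.19 (95% interval -2.46 to 2.83).

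Among the signalling kinases JAK1, which serves interferon, interleukin-6 family and common gamma chain receptors, was called higher. Its values were 593, 552, 653 and 469 in eGFP- and 769, 847, 1095 and 1224 in eGFP+ libraries, without overlap. The means were 567 ± 77.1 and 984 ± 212 (SD, n = 4 each), a log2 difference of 0.78 (SE 0.20, 95% interval 0.35 to 1.21, limma adjusted p = 0.0297), with 0.50 and 1.06 in the batches. The call was lost without any of 6 libraries, with adjusted p = 0.059, 0.0549 and 0.123 without eGFP- library 2, 4 or 5 and 0.0505, 0.0892 and 0.114 without eGFP+ library 2, 4 or 5. It was also lost with replicate number in place of batch in the fit (limma adjusted p = 0.0569) and without the mean-variance trend (adjusted p = 0.404). JAK2 and jak3, whose product works with the common gamma chain, were at -0.07 (95% interval -1.33 to 1.2) and 0.13 (95% interval -0.72 to 0.97).

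Feedback inhibitors did not pass. SOCS3 ENSDARG00000026611, whose product dampens interleukin-6 family and granulocyte colony-stimulating factor receptors, had 232, 185, 34.7 and 180.4 normalized counts in eGFP- and 254, 356, 359.9 and 381 in eGFP+ libraries. No values overlapped, and eGFP- library 4 was far below the rest. Its log2 difference was 1.37 (SE 0.44, 95% interval 0.45 to 2.29, limma adjusted p = 0.0742), and 0.73 without eGFP- library 4. It passed with median centring (adjusted p = 0.00359) and without eGFP+ library 1 (adjusted p = 0.0113). SOCS3 ENSDARG00000025428 had 87.8 to 323 in eGFP- and 144 to 375 in eGFP+ libraries, at 0.42 (95% interval -0.41 to 1.25). SOCS1, a brake on interferon signalling, was at 0.48 with an interval from -2.34 to 3.30, and had opposite signs in the batches (-2.48 and 3.45). SOCS6 was under 1 in 5 libraries and was not tested.

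Whether copies of a gene differed in their response was examined by the log2 ratio of their values, each plus 1, within each library, which depends little on the scaling of libraries. An exact two-sided permutation test over the 70 ways to split the 8 libraries into 4 and 4 was run for 7 pairs, where the smallest p it can give is 0.0286, and p-values were adjusted over the pairs. With this floor at least 5 of the 7 pairs would have to be fully separated for any to pass after adjustment, so the lack of a call says little. No pair passed, and the lowest adjusted p was 0.2 (exact permutation test). The ratio of TGFBR2 ENSDARG00000034541 to TGFBR2 ENSDARG00000059363 ran from -1.83 to 0.95 in eGFP- and from -5.40 to -3.55 in eGFP+ libraries on the log2 scale. These values did not overlap, and the means were -0.41 ± 1.28 and -4.72 ± 0.86 (SD, n = 4 each, exact permutation p = 0.0286, adjusted p = 0.2). TGFBR2 ENSDARG00000034541 passed the filter on low values only through the eGFP- libraries and was under 1 in all eGFP+ libraries. There the ratio mostly follows the level of the other identifier. This p therefore only describes these libraries and is no separate test of the copies. The ratio of tnfa to tnfb was -2.35, -1.64, -2.52 and -1.82 in eGFP- and -1.83, -0.61, 0.35 and -0.05 in eGFP+ libraries, a difference of 1.55 (exact permutation p = 0.0857, adjusted p = 0.2). Library 1 of the eGFP+ cells lay among the eGFP- values of that ratio. The ratio of tgfb1a to tgfb1b averaged 0.45 ± 1.44 in eGFP- and 3.49 ± 1.68 in eGFP+ libraries (SD, n = 4 each), a difference of 3.04 (exact permutation p = 0.0571, adjusted p = 0.2). The batches gave 3.15 and 2.94. The populations overlapped, as eGFP- library 1, at 2.07, lay above eGFP+ library 4, at 1.87. In eGFP+ library 1, which had the highest ratio (5.79), tgfb1b was at 0.367 normalized counts. For tnfrsf9a over tnfrsf9b the difference was 0.06, and for SOCS3 ENSDARG00000025428 over SOCS3 ENSDARG00000026611 it was -0.95 (exact permutation p = 0.143). The sources used here do not say how reads that fit several copies were assigned, which leaves the split between near-identical copies uncertain.

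**Figure D3:**
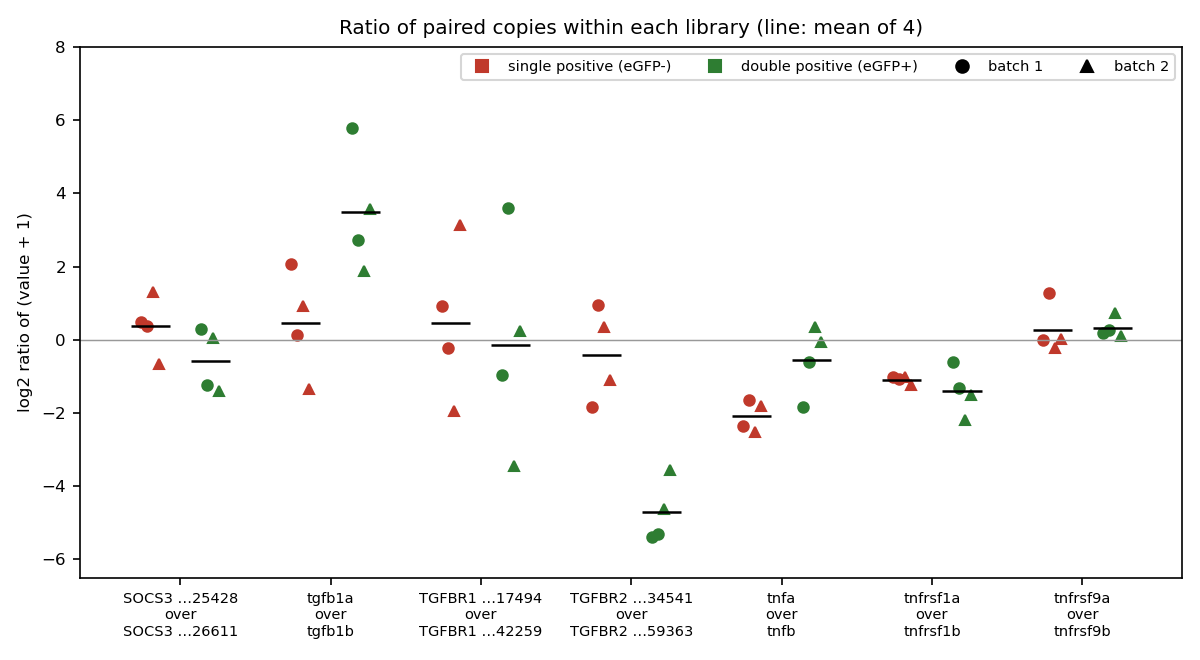
Log2 ratio of (value + 1) between the members of 7 pairs that share a symbol or differ in its closing letter, in each of 4 eGFP- and 4 eGFP+ libraries (circles, batch 1; triangles, batch 2; line, mean of 4). The pair tnfrsf1a and tnfrsf1b entered by its letters, though they are separate receptor genes. The populations are apart for the TGFBR2 pair, where all eGFP+ ratios are at -3.55 or lower and all eGFP- ones at -1.83 or higher. Of that pair, TGFBR2 ENSDARG00000034541 passed the filter on low values only through the eGFP- libraries.

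Further genes of the same pathways were taken from 4 lists that the name rule does not cover. Their counts stand beside 3.88% of all tested genes called higher, 2.81% called lower and 19.1% with an unadjusted p under 0.05 (limma). Of the 10 called genes of these lists, STAT4 and flt3 kept the call without the mean-variance trend and the other 8 lost it (limma adjusted p of 0.104 to 0.333). In the list of STAT signalling and JAK partners 0 of 26 tested genes were higher and 2 lower (limma, 5 in either direction at an unadjusted p under 0.05), with a median log2 difference of -0.14 beside -0.16 for all tested genes. STAT4, the transcription factor of interleukin-12 signalling, fell from 55.5 ± 16.3 to 6.44 ± 4.84 normalized counts (SD, n = 4 each, log2 difference -3.17, SE 0.86, limma adjusted p = 0.0339), with 44.8 to 79.5 in eGFP- and 1.27 to 12.3 in eGFP+ libraries. BCL6, a transcriptional repressor gene of lymphocytes and macrophages, fell from 143 ± 97.3 to 33.2 ± 22.7 (log2 difference -2.08, SE 0.55, limma adjusted p = 0.0303). STAT4 kept its call without eGFP+ library 1 or 2 and lost it without any of the other 6 (adjusted p of 0.052 to 0.158), and BCL6 lost it without eGFP- library 2 or 4 or eGFP+ library 4 or 5, with adjusted p of 0.0798 to 0.159. Of the lymphocyte markers given above, 5 of 7 for B lymphocytes and 1 of 3 for T and NK lymphocytes, CCR9, were called lower in the same libraries, and endothelial markers had the values given beside TGFBR2. The calls of cd37, ighm, PAX5 and cd79a have the limit on the filter given there. The part of these markers was not tested.

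In the list of TNF and interleukin-1 signal relay 2 of 36 tested genes were called higher and 1 lower, where 3.88% and 2.81% of all tested genes were. The median was -0.13, beside -0.16 for all tested genes. An unadjusted limma p under 0.05 was reached by 5 of the 36, beside 19.1% of all tested genes. TNIP1, a partner of the NF-kB inhibitor TNFAIP3, had 223, 167, 186 and 185 normalized counts in eGFP- and 355, 669, 694 and 799 in eGFP+ libraries. BIRC2, the ubiquitin ligase cIAP1 at the TNF receptor, had 574, 439, 539 and 681 in eGFP- and 1143, 1054, 1539 and 1295 in eGFP+ libraries. Neither gene overlapped between the populations, and their log2 differences were 1.67 (SE 0.27, limma adjusted p = 0.00115) for TNIP1 and 1.17 (SE 0.19, limma adjusted p = 0.00119) for BIRC2. Both calls held without any single library, at adjusted p of up to 0.00972 and 0.00752, but neither held without the mean-variance trend (adjusted p = 0.104 and 0.197). IRAK3, an inhibitor of interleukin-1 and Toll receptor signalling in macrophages, fell from 458 ± 38.3 to 250.4 ± 23.7 (SD, n = 4 each), without overlap. Its log2 difference was -0.87 (SE 0.23, limma adjusted p = 0.0297), and -1.03 and -0.71 in the batches. The call was lost with median centring (adjusted p = 0.424) and, with the exception of eGFP- library 4, whenever 1 library was left out (adjusted p of 0.0532 to 0.0918).

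For the TGF-beta pathway outside the receptors and ligands, 2 of 39 tested genes were called higher and 1 lower, where 3.88% and 2.81% of all tested genes were. The median was 0.20 (-0.67 in batch 1 and 0.58 in batch 2). An unadjusted limma p under 0.05 was reached by 11 of the 39, beside 19.1% of all tested genes. SKIL, a repressor of SMAD-driven transcription, had 46.6, 0.467, 8.28 and 8.59 normalized counts in eGFP- and 142, 118, 70 and 109 in eGFP+ libraries, without overlap (log2 difference 3.60, SE 0.85, limma adjusted p = 0.0165). SKI, its close relative, fell from 205 ± 53.9 to 86.2 ± 45.8 (SD, n = 4 each, log2 difference -1.35, SE 0.39, limma adjusted p = 0.0487). SMAD1, which carries bone morphogenetic protein signals, rose from 59.3 ± 31.5 to 207 ± 95 (SD, n = 4 each, log2 difference 1.8, SE 0.48, limma adjusted p = 0.0323), though eGFP+ library 1, at 81.5, lay below eGFP- library 2, at 101. SKIL was lost without eGFP+ library 5 (adjusted p = 0.0829), and SKI with median centring (adjusted p = 0.166) and whenever 1 library other than eGFP+ library 2 was left out (adjusted p of 0.0531 to 0.191). SKI was also lost with no filter (adjusted p = 0.0518) and at a pseudocount of 0.1 (adjusted p = 0.0613). The call of SMAD1 held only without eGFP- library 2 or eGFP+ library 1, and the other 6 libraries left out gave adjusted p of 0.0584 to 0.181.

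Of 13 tested cytokine ligands and receptors with other names 1 was called higher and 1 lower, where 3.88% and 2.81% of all tested genes were. The median was -0.77. An unadjusted limma p under 0.05 was reached by 3 of the 13, beside 19.1% of all tested genes. The gene csf2rb, of the common beta chain shared by receptors for granulocyte-macrophage colony-stimulating factor, rose from 97.2 ± 39.5 to 248 ± 85.6 (SD, n = 4 each, log2 difference 1.38, SE 0.35, limma adjusted p = 0.0267). All its eGFP+ values, 182 to 373, lay above its eGFP- values, 58.8 to 137. The receptor gene flt3, known from blood progenitors and dendritic cells, had 101, 87.9, 13.1 and 111 in eGFP- and 0.831, 0.664, 4.68 and 1.71 in eGFP+ libraries (log2 difference -4.56, SE 1.06, limma adjusted p = 0.0153). The call of csf2rb did not survive leaving out eGFP- library 2 or 4 or eGFP+ library 4 or 5 (adjusted p of 0.0624 to 0.138), and that of flt3 ended without eGFP- library 1, 2 or 5 (adjusted p of 0.0728 to 0.0946).

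The batches agreed in sign for 32 of the 45 tested members, or 71.1%, against 58.4% of all tested genes. All 5 called members had the same sign in both, which a call over both batches favours. The difference in batch 2 was the larger in size for 30 members. The median of the members was 0.29 in batch 1 and 0.82 in batch 2, where that of all tested genes was -0.40 and 0.08. In batch 2 alone, tnfrsf11a (adjusted p = 0.00513), CSF3R (adjusted p = 0.00972), tnfa (adjusted p = 0.0195) and TGFBR2 ENSDARG00000034541 (adjusted p = 0.0226) passed in the limma fit, and JAK1 did not (adjusted p = 0.0583). The limit on the filter given for TGFBR2 ENSDARG00000034541 holds in this batch too. Of all tested genes 412 were called higher and 152 lower in that batch. An unadjusted p under 0.05 was reached there by 18 members and by 21.3% of all tested genes. In batch 1 alone 0 of all tested genes passed (limma), and 7 members among 1364 genes, or 13.5% of all tested, had an unadjusted p under 0.05.

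**Figure D4:**
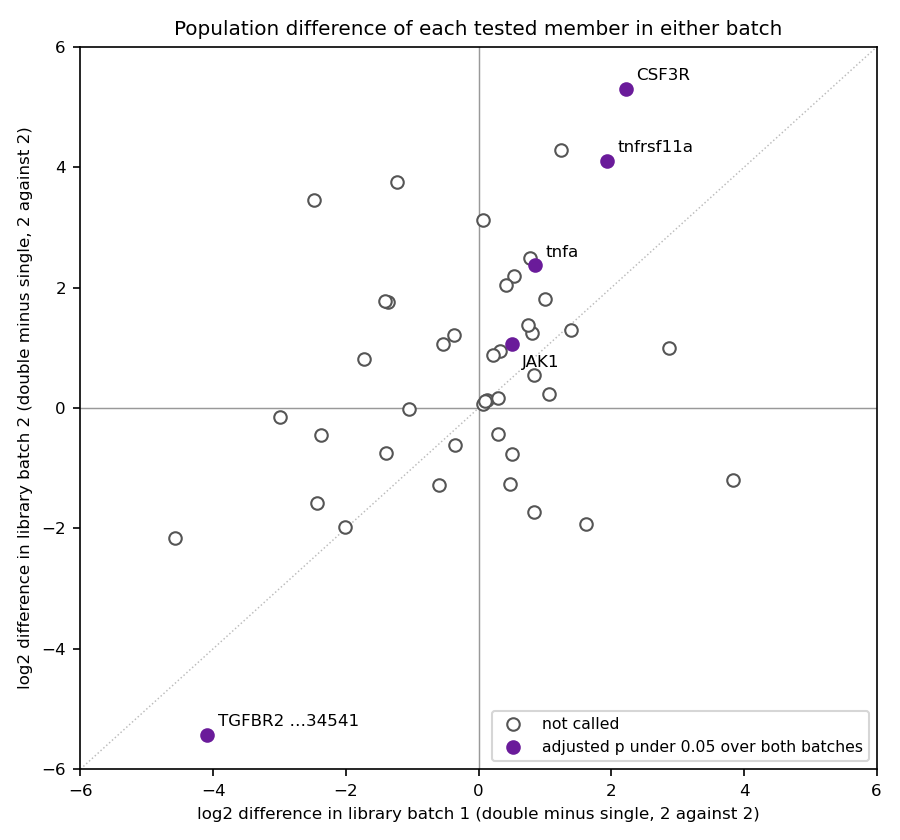
Log2 difference of each of the 45 tested members in library batch 1 (x axis) against batch 2 (y axis), each from 2 eGFP+ and 2 eGFP- libraries. Filled points are the 5 members called over both batches, all in the lower left or upper right part, and all of them further from 0 in batch 2. On the dotted line both batches give the same value.

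Without eGFP+ library 4, and likewise without eGFP+ library 5, 0 of the 45 members were called (limma), where 176 and 169 of all tested genes were called higher and 145 and 101 lower. An unadjusted p under 0.05 was then reached by 12 and 11 members, and by 15.7% and 15.5% of all tested genes. Without eGFP+ library 1, the library with the most values under 1, 7 members were called higher and 1 lower, beside 4.91% of all tested genes called higher. The 3 members gained were tnfrsf9a, il1fma and SOCS3 ENSDARG00000026611, and the 5 called over all libraries stayed. The members' median log2 difference was then 0.56, and that of all genes 0.01.

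**Figure D5:**
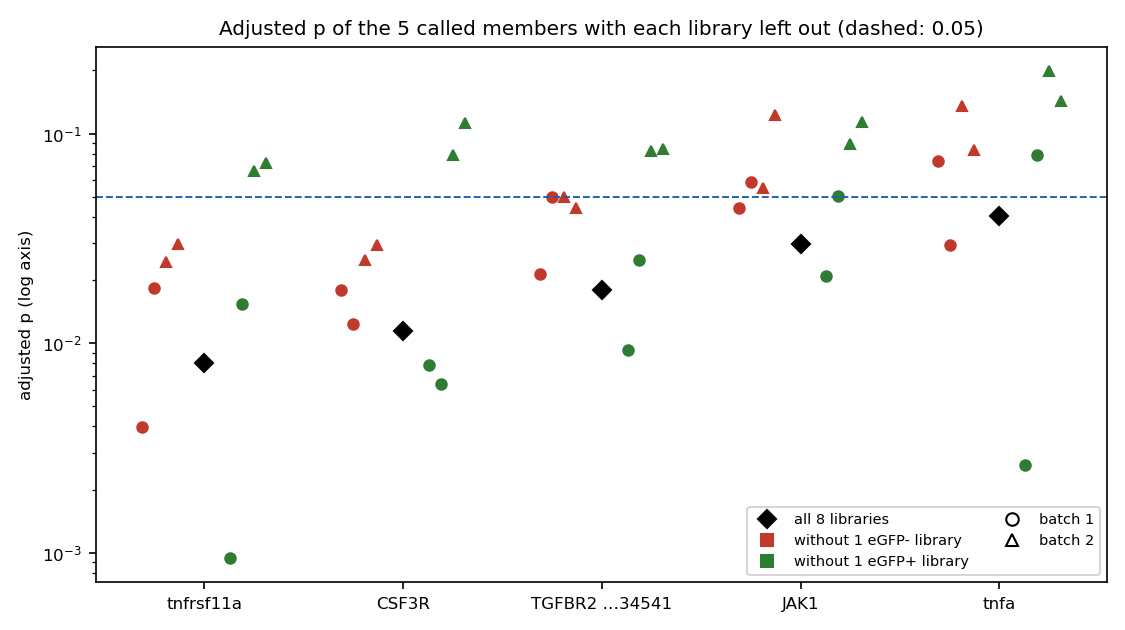
Adjusted p (limma, log axis) of the 5 called members over all 8 libraries (diamonds) and with each library left out, in red for eGFP- and green for eGFP+ libraries, circles for batch 1 and triangles for batch 2. Points above the dashed line at 0.05 are lost calls. For all 5 genes the calls are lost without eGFP+ library 4 or 5, and the values for tnfa reach 0.198.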

How the data were processed

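The table holds 1 column per library of normalized counts as the authors deposited them, treated here as a linear signal. The submitters' processing notes name CASAVA 1.8.2, cutadapt, RSEM 1.2.3 and the build Zv9. The sources used here give neither the roles of these tools nor the annotation or the normalization. Read depth is unknown, so counting intervals are left out, and values under 1 (lowest 0.0143) may come from the normalization. Symbols matched 81.2% of identifiers.

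Libraries were grouped by the fluorescence label. A gene was tested where at least 4 of 8 libraries reached 1 in 1000000 of their column total. The log2(value + 1) scale understates changes of low genes. On it, limma 3.58.1 (R 4.3.3) was fitted with batch as a second term and a trended prior variance (two-sided, Benjamini-Hochberg adjustment over 10127 genes, threshold 0.05). Each library came from a pool of hearts, and the labels do not say whether eGFP- and eGFP+ libraries of equal number share a pool. The fit treats them as separate. The fitting code was tested on simulated data. The members and lists were chosen with earlier results of these data known. Values in every library are given for tnfa, CSF3R, TGFBR2, each called member and the member of highest mean in each role. For the 4 pathway lists the called genes are named, up to 4 in each direction. Other members with values in each library were chosen after their values were seen.

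Alternatives were other filters, pseudocounts of 0.1 and 5, median centring, quantile normalization, no trend, no batch term, a replicate block, each library left out, and each batch alone.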

Additional observations from a re-analysis of the deposited data

Results flagged for a closer look

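For 28 genes, namely the members chosen by rule, the members whose populations did not overlap and the called pathway genes with wt1b, each population of 4 libraries was searched for a library far from the other 3, 56 searches in all, of which chance flags about 1 in 20. The search found 1 case. The value of il11a in eGFP+ library 4 was 3.23 normalized counts, where the other 3 eGFP+ libraries had 0.2 to 0.251, a gap of 0.983 of the range. All eGFP- libraries lay above it, at 5.76 to 32.1.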

How the results depend on the processing

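Over all 8 libraries 4 members were called higher and 1 lower. The higher count was 8 with median centring, 0 without the mean-variance trend, 2 with the replicate block and 0 in batch 1 alone, and the lower count was 0 at a filter of 10 in 1000000, 2 without the batch covariate and 0 in batch 1 alone. With 1 library left out they ran from 0 to 7 and from 0 to 1. Of all tested genes, 393 and 285 were called higher and lower, 124 higher without the trend, 176 lower with the replicate block and 152 lower in batch 2 alone, and 0 of either in batch 1 alone (limma, 1364 genes at an unadjusted p under 0.05); with 1 library left out they ran from 169 to 497 and from 101 to 308. The cause of these shifts was not tested. Libraries of equal replicate number had deviations from the population means that correlated at -0.292 to -0.112. These correlations followed the batch, which was left in. Unequal numbers of the same batch gave -0.255 to -0.105, and numbers of different batches 0.094 to 0.283. The correlations therefore cannot tell whether libraries of equal number came from the same hearts. With the block JAK1 and tnfa (limma adjusted p = 0.0569 and 0.0578) lost their calls, as did STAT4, IRAK3, SKI and csf2rb (adjusted p of 0.0514 to 0.071). The signs of tnfb turned with quantile normalization (-0.11) and across single libraries left out (-0.03 to 0.16), and that of TGFBR2 ENSDARG00000059363 in batch 1 alone (0.83) and across single libraries left out (-0.76 to 0.00). The count of paralog pairs past the threshold was 0 with pseudocounts of 0.1 and 5 too; with 1 library left out the exact test cannot pass (smallest p 0.0571), so those 0 counts say nothing about stability. The log2 differences of the other 26 genes examined kept their sign under all settings in which they were tested. Unknown depth limits what can be said of values under 1.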
